A study of Homo sapiens with 6 samples.

Results

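Mitochondrial ribosomal protein genes were taken as the protein-coding entries of the expression table whose symbol is MRPL or MRPS followed by a digit. The rule found 78 of 27420 listed genes, 48 with an MRPL and 30 with an MRPS symbol, and it used no measured value. A673 and SKNMC are established lines grown from Ewing sarcoma, a bone and soft tissue tumor driven by the EWS-FLI1 fusion. Cells of both lines received DMSO alone, THZ1 at 50 nM or THZ1 at 200 nM, a covalent CDK7 inhibitor, for 6 h, and RNA was sequenced from 1 library for each line and treatment. THZ1 acts on a kinase of the general transcription machinery that phosphorylates the tail of RNA polymerase II, and the comparison asked how the mRNA of these genes stood after a low and a high dose. No condition had a replicate, so differences have no replicate error to be set against and carry no p-value.

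Mitochondrial ribosomes translate the few mRNAs transcribed from mitochondrial DNA, which encode core subunits of the respiratory chain and of ATP synthase. Their rRNAs come from the same DNA, whereas all of their proteins are encoded in the nucleus, made by cytosolic ribosomes and imported. Many of the proteins have bacterial counterparts, and others are found only in mitochondria, where they take the place of rRNA segments that were lost or cover the outside of the particle.

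Levels are given in FPKM (a fragment count corrected for transcript length and library size), as deposited, which makes levels of different genes comparable per length and each value a share of its library. A gene was called active where it exceeded 1 FPKM in the DMSO library of the line. A change is log2 of (FPKM + 1) with THZ1 over (FPKM + 1) with DMSO, so that -1 means 2-fold lower, and the added 1 understates the change of low genes. Of the 78 entries, 76 were active in both lines and stayed above 1 FPKM in all 6 libraries, and 75 exceeded 10 FPKM in both DMSO libraries. The other 2 were second entries of MRPL30 and MRPS17 (ENSG00000273155 and ENSG00000249773), which lie over the first entries of these genes and reached at most 0.707 and 0.927 FPKM. No entry was listed at 0 in any library.

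Counts, shares and medians below run over the 76 active members, 1 entry for each symbol. MRPS36 is among them by its symbol, although its protein was later assigned to the 2-oxoglutarate dehydrogenase complex. The 6 markers of Ewing sarcoma looked at were all present, at 3.60 to 763 FPKM. Of 6 markers of blood, epithelium or liver, 5 stayed at or below 0.826 FPKM, while PTPRC, a leukocyte phosphatase, reached 13.1 FPKM in SKNMC. The part of PTPRC-positive cells or transcripts in the results was not tested. The sum of all listed FPKM in the THZ1 libraries was 97.8% to 101% of that in the DMSO library of the line. The absolute depth is unknown, and the most frequent ratio between low values put it at 88.6% to 96.3% of the DMSO library, a rough figure because at most 1.35% of the low genes sat at that ratio.

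With DMSO, these genes formed a narrow band of moderately expressed genes. Their median level was 47.6 FPKM in A673 and 46.4 FPKM in SKNMC, against 15.2 and 15.8 FPKM for all genes active in both lines. The SD of log2(FPKM + 1) across the members was 0.81 in A673 and 0.79 in SKNMC, and across all active genes it was 1.75 and 1.65. MRPL51 and MRPL42, large subunit proteins found only in mitochondria, led the order of mean levels. MRPL51 was at 145 FPKM in A673 and 128 in SKNMC, and MRPL42 at 149 and 96.5. MRPL3, MRPL20 and MRPS34 followed, with mean levels between 109.6 and 116 FPKM. At the other end stood MRPL30 (ENSG00000185414), at 5.00 and 4.52 FPKM, MRPS31, at 13.8 and 14.3 FPKM, and MRPL50, at 19.3 and 12.2 FPKM. Neighbours in this order cannot be called different, since there is no spread over replicates to set them against.

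The lines had much the same levels before treatment. The median log2 ratio of A673 to SKNMC with DMSO was 0.00 over the members and -0.05 over all active genes. MRPL41, a large subunit protein without a bacterial counterpart, was more than 2-fold higher in A673 on the log2(FPKM + 1) scale (45.7 against 19.8 FPKM), the only such member, where 6.93% of all active genes were. MRPS18C, the counterpart of bacterial S18, was 2-fold higher in SKNMC (47.9 against 23.3 FPKM), again the only one, where 8.96% of all active genes were. The next largest ratios toward A673 were those of MRPL43, MRPS21 and MRPS6, with log2 ratios of 0.86, 0.81 and 0.81. Toward SKNMC they were those of MRPL37, MRPL22 and MRPL45, at -0.99, -0.99 and -0.97. Across the 76 members the levels of the lines had a Spearman correlation of 0.73, a description over genes, which are not replicates. Dividing each library by the median of its cytosolic ribosomal protein genes moved the median log2 ratio of the members to 0.44 and that of all active genes to 0.36.

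**Figure D1:**
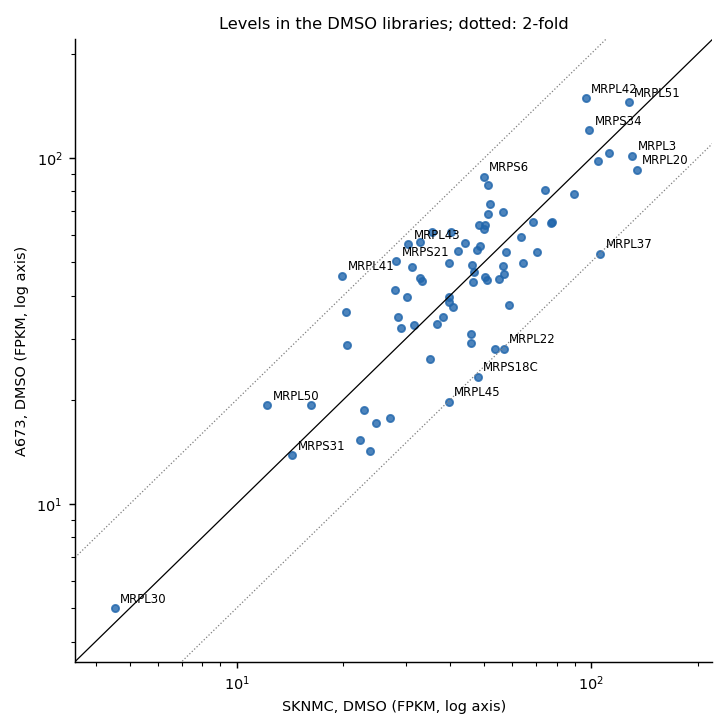
Level of each of the 76 active mitochondrial ribosomal protein genes with DMSO, in SKNMC (horizontal) and A673 (vertical), in FPKM on log axes, 1 point per gene and 1 library per line. The solid line marks equal levels and the dotted lines 2-fold FPKM ratios. Most genes lie between the dotted lines. They run from MRPL30, at 5.00 FPKM in A673 and 4.52 in SKNMC, to MRPL51, at 145 FPKM in A673 and 128 in SKNMC.

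With 50 nM THZ1 in A673, the members were lower in the main, and none was 2-fold higher. The median change was -0.32, beside -0.27 for all 11077 active genes. At least 2-fold lower were 8 of the 76 members, or 10.5%, where the share of all active genes was 15.9%. With 200 nM in A673 the median was -0.26 and 13 members, or 17.1%, were 2-fold lower, beside a median of -0.40 and a share of 25.3% for all active genes. In A673 a smaller share of the members than of all active genes was 2-fold lower at both doses. As these are bulk samples, fewer cells that express a gene and less of its RNA per cell cannot be told apart.

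In SKNMC the members stood further below the DMSO level, above all at the high dose. At 50 nM the median was -0.47 and 9 members were 2-fold lower, or 11.8%, beside -0.32 and 15.8% for all 11896 active genes. At 200 nM the median was -0.79 and 30 members were 2-fold lower, or 39.5%, beside -0.55 and 27.3%. No member was 2-fold higher in either line at either dose, where 0.343% and 0.126% of all active genes were in A673 and 0.471% and 0.462% in SKNMC, at 50 and 200 nM. Among genes above 10 FPKM with DMSO alone, which is where 75 of the members lie, the medians of all genes were -0.20 and -0.32 in A673 and -0.25 and -0.53 in SKNMC, at 50 and 200 nM, and the members' medians were -0.32, -0.26, -0.47 and -0.82. No member was at least 1.5-fold higher in A673 at 50 or 200 nM or in SKNMC at 50 nM, where 1.78%, 1.7% and 2.43% of all active genes were. In SKNMC at 200 nM 1 member was, MRPL30, where the share was 2.81%. At 1.5-fold lower stood 23 and 26 members in A673 and 31 and 48 in SKNMC, where the shares of all active genes were 31.8%, 41.1%, 33.5% and 48.0%.

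FPKM values are shares, and the scaling of the libraries sets where no change lies. A scale set by the 75th percentile of the active genes raised the median of all active genes by 0.21 and 0.30 in A673 and by 0.24 and 0.45 in SKNMC. Dividing by the median of the cytosolic ribosomal protein genes lowered it, with shifts of -0.19, -0.29, -0.24 and -0.40. Taken against the median of all active genes, the members' median was -0.04 and 0.13 in A673 and -0.15 and -0.25 in SKNMC as deposited. Over the 3 other scalings this difference ranged from -0.07 to -0.01 and from 0.08 to 0.18 in A673, and from -0.21 to -0.12 and from -0.38 to -0.17 in SKNMC. None of these 4 differences changed sign among the scalings, but this is no separate check. Each scaling multiplies all genes of a library by the same factor, so both medians move nearly together. The choice of genes could move the difference more freely. In A673 at 200 nM the difference turned when all listed genes above 0 were kept (-0.20). The members at least 2-fold lower became 5 and 10 in A673 and 4 and 13 in SKNMC with the 75th percentile, and 14, 21, 26 and 54 when divided by the cytosolic ribosomal protein genes. The same factors move all other active genes too, and their shares on these scales are not given. These counts alone therefore do not set the members apart.

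Summed over the members, their share of all listed FPKM in A673 went from 0.852% with DMSO to 0.692% at 50 nM and 0.701% at 200 nM. In SKNMC it went from 0.824% to 0.614% and 0.533%. The members also spread apart. The SD of log2(FPKM + 1) across them went from 0.81 to 0.98 and 1.13 in A673 and from 0.79 to 0.91 and 1.08 in SKNMC, and across all genes active in both lines from 1.75 to 1.96 and 2.03 and from 1.65 to 1.86 and 1.89.

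**Figure D2:**
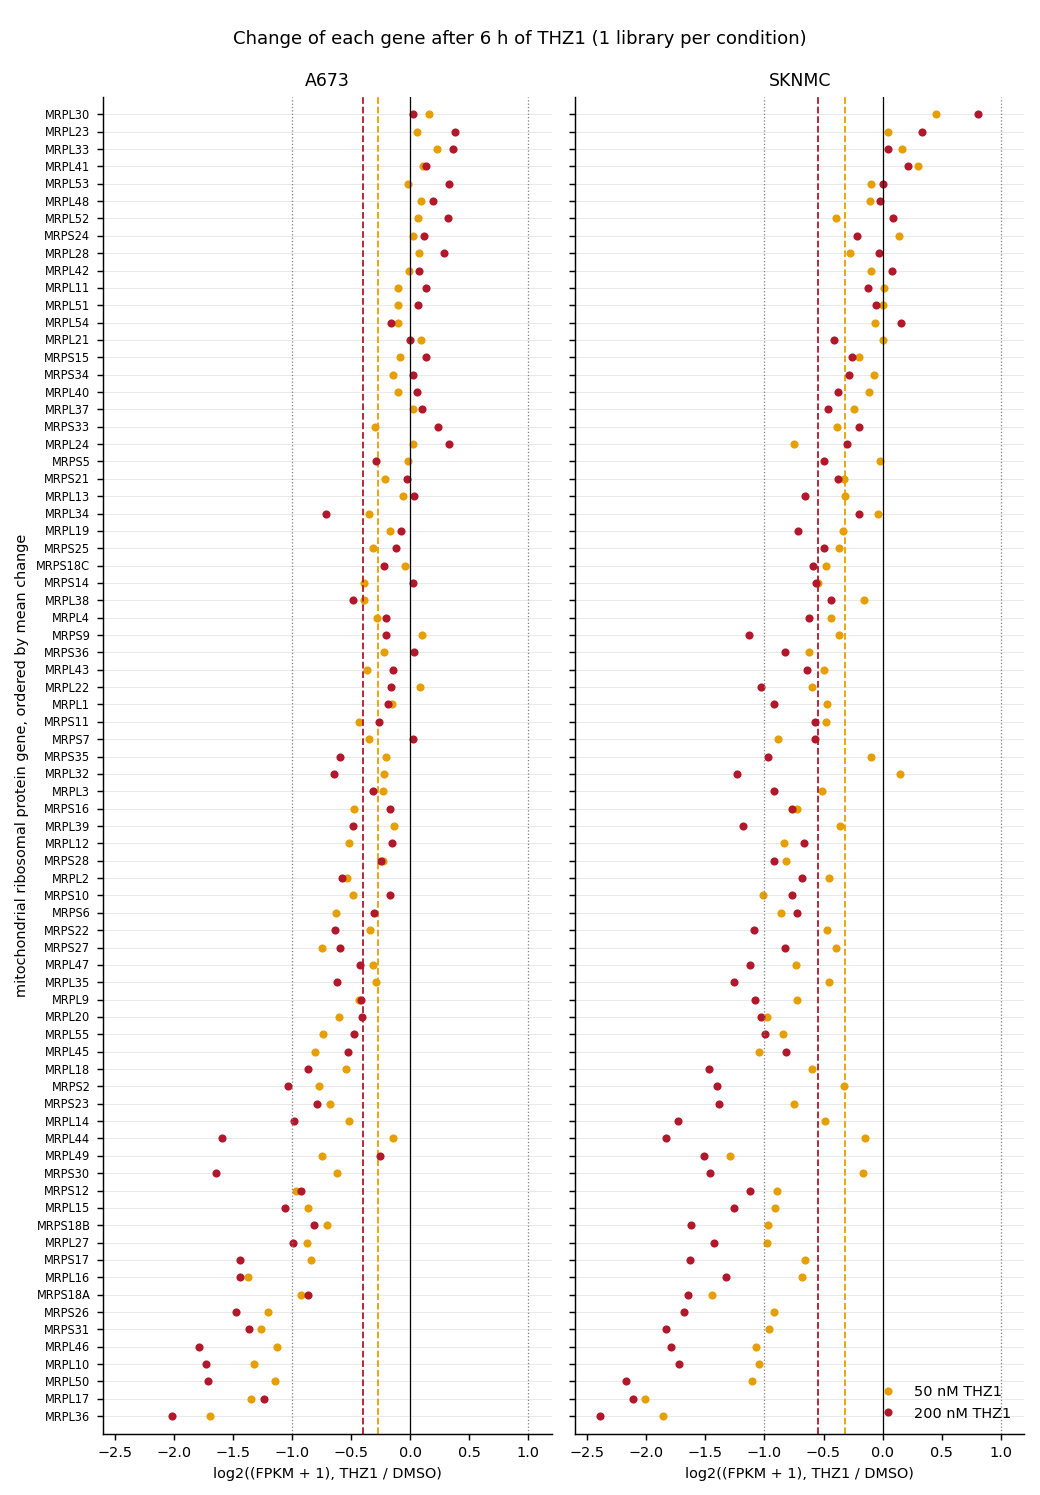
Change of each of the 76 active genes against the DMSO library of its line, log2((FPKM + 1), THZ1 / DMSO), in A673 (left) and SKNMC (right), at 50 nM (yellow) and 200 nM (red), 1 point per gene and library pair. Dashed lines are the medians of all active genes and dotted lines mark 2-fold. Genes run from MRPL36 at the bottom, at -1.69 to -2.39, to MRPL30 at the top.

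Within the family, 32 members were at least 2-fold lower in 1 or more of the 4 comparisons, 42.1%, where 37.3% of the genes active in both lines were. Below the DMSO level by any amount in all 4 comparisons were 49 members, or 64.5%, where 52.9% of all active genes were.

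With the change as defined above, the deepest and most regular decreases were those of MRPL36, MRPL17, MRPL50, MRPL10 and MRPL46. These 5 large subunit genes were each at least 2-fold lower in all 4 comparisons, where 8.7% of all active genes were. MRPL36 (ENSG00000171421, chr5:1798499-1801480 in hg19, minus strand), the counterpart of bacterial L36, was at 65.1 FPKM in A673 with DMSO, then 19.4 and 15.4 with the lower and the higher dose, and at 68.4, 18.1 and 12.2 FPKM in SKNMC. Most of its difference was reached at 50 nM, with log2 changes of -1.69 and -1.86, which became -2.01 and -2.39 at 200 nM.

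MRPL17 (ENSG00000158042, chr11:6702012-6704632, minus strand), the counterpart of bacterial L17, went from 49.7 to 19.0 and 20.5 FPKM in A673 and from 64.2 to 15.2 and 14.1 in SKNMC. It differed little between the doses in either line. MRPL10 (ENSG00000159111, chr17:45900637-45908900, minus strand), which with MRPL12 builds the stalk of the large subunit, went from 14.2 to 5.09 and 3.59 FPKM in A673 and from 23.8 to 11.02 and 6.54 in SKNMC. MRPL12 itself, named for that partnership after its values were seen, was at 98.1, 68.3 and 88.3 FPKM in A673 and at 105, 58.1 and 65.6 FPKM in SKNMC, so the genes of the stalk did not keep one ratio.

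MRPL46 (ENSG00000259494, chr15:89002706-89010650, minus strand) and MRPL50 (ENSG00000136897, chr9:104149914-104160896, minus strand), large subunit proteins found only in mitochondria, were lower at each dose step in both lines. MRPL46 went from 19.3 to 8.30 and 4.88 FPKM in A673 and from 16.3 to 7.23 and 3.98 in SKNMC. MRPL50 went from 19.3 to 8.18 and 5.19 FPKM in A673 and from 12.2 to 5.15 and 1.93 in SKNMC. MRPS31 was the small subunit gene nearest to this group, at 13.8, 5.19 and 4.77 FPKM in A673 and 14.3, 6.87 and 3.29 in SKNMC. When 0.1 was added to each FPKM, a smaller amount than in the main setting, MRPS31 was also 2-fold lower in all 4 comparisons. That made 6 members, so the restriction to the large subunit depended on the amount added. How many members were 2-fold lower in all 4 comparisons also depended on the scaling: MRPL36 alone with the 75th percentile, and 11 members when divided by the cytosolic ribosomal protein genes. The shares of all active genes on these scales, or with 0.1 added, are not given.

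**Figure D3:**
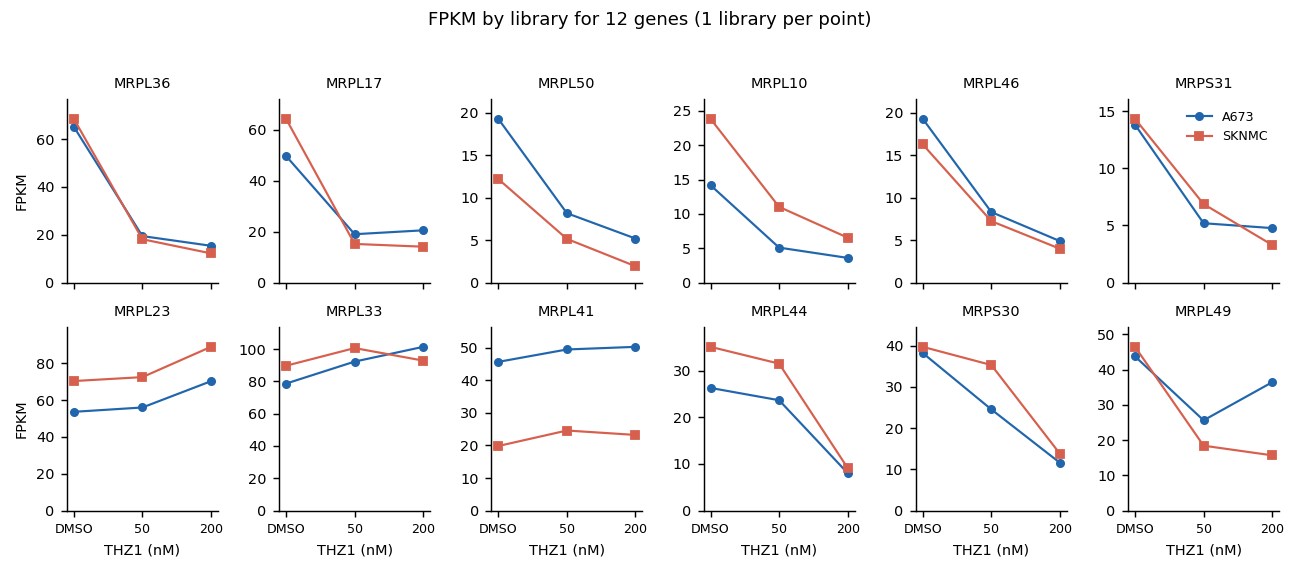
FPKM with DMSO, 50 nM and 200 nM THZ1 for 12 genes in A673 (blue circles) and SKNMC (red squares), 1 library per point, each axis starting at 0. The top row holds genes lower at 50 nM already, such as MRPL36 from 65.1 to 19.4 FPKM in A673, and the bottom row 3 genes above the DMSO level throughout, MRPL44 and MRPS30, lowest at 200 nM in both lines, and MRPL49, which differs between the lines.

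MRPL44 and MRPS30 were lower mainly at the high dose. MRPL44, which is related to RNase III, was at 26.3, 23.6 and 8.02 FPKM in A673 and 35.1, 31.5 and 9.11 FPKM in SKNMC, so that its log2 change went from -0.15 to -1.60 and from -0.15 to -1.83. MRPS30, whose protein sits in the large subunit despite its symbol, was at 38.2, 24.5 and 11.6 FPKM in A673 and 39.7, 35.3 and 13.8 FPKM in SKNMC. They were the only 2 members at least 2-fold lower at 200 than at 50 nM in A673, where 7.44% of all active genes were. In SKNMC there were 6 such members, where the share was 8.39%. These were MRPL14, MRPL32, MRPL44, MRPL50, MRPS2 and MRPS30.

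Of the other members that were 2-fold lower, MRPS26 and MRPS18B encode small subunit proteins without a direct bacterial counterpart and MRPL16, MRPS17 and MRPL15 encode conserved proteins. MRPL16 was at 29.2, 10.7 and 10.1 FPKM in A673 and 45.8, 28.1 and 17.7 FPKM in SKNMC. MRPS17 (ENSG00000239789) was at 18.7, 9.99 and 6.28 FPKM in A673 and 22.9, 14.1 and 6.72 FPKM in SKNMC. MRPS26 was at 48.6, 20.6 and 16.9 FPKM and at 56.4, 29.3 and 16.9 FPKM. All of these were lower at 50 nM and lower still at 200 nM in both lines. In SKNMC at 200 nM alone 15 members were 2-fold lower, 19.7%, where 5.05% of all active genes were. They were MRPL9, MRPL14, MRPL18, MRPL20, MRPL22, MRPL27, MRPL32, MRPL35, MRPL39, MRPL47, MRPS9, MRPS12, MRPS18B, MRPS22 and MRPS23. Some lay just short of the cut elsewhere. MRPL27 had log2 changes of -0.87 and -0.99 in A673 and -0.98 in SKNMC at 50 nM. In the same order MRPS12 had -0.97, -0.92 and -0.89, whereas MRPS9 had 0.10, -0.20 and -0.37. Membership in this list therefore depends on the cut and on the amount added to FPKM, and it was not taken on other scales. MRPL18, a conserved protein, was at 55.7, 37.9 and 30.1 FPKM in A673 and 48.5, 31.7 and 16.9 FPKM in SKNMC.

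At the other end, 4 members were above the DMSO level in all 4 comparisons, 5.26%, where 10.0% of all active genes were. MRPL23, which lies at the exit of the peptide tunnel, was at 53.6, 56.0 and 70.2 FPKM in A673 and 70.3, 72.5 and 88.9 FPKM in SKNMC. MRPL33 was at 78.6, 92.2 and 101 FPKM in A673 and 89.7, 101 and 92.9 FPKM in SKNMC. MRPL41 was at 45.7, 49.5 and 50.3 FPKM and at 19.8, 24.6 and 23.2 FPKM. MRPL30 (ENSG00000185414), the fourth, changed from 4.52 to 6.57 and 8.64 FPKM in SKNMC. Its log2 change of 0.80 at 200 nM was the highest of any member. In A673 it was at 5.00, 5.69 and 5.10 FPKM. The second MRPL30 entry, not active, went the other way in SKNMC, at 0.707, 0.233 and 0.132 FPKM. The direction of these 4 hung on the scaling, as 17 members were above DMSO in all 4 comparisons with the 75th percentile and 0 when divided by the cytosolic ribosomal protein genes. The shares of all active genes on these scales are not given either. MRPL52, MRPL53 and MRPL48 came next by mean change, with means between 0.02 and 0.05.

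The members kept much the same order in both lines. Across the 76 members, the Spearman correlation of the changes in A673 and SKNMC was 0.78 at 50 nM and 0.88 at 200 nM, which describes genes measured in the same 4 libraries at a time. At least 2-fold lower in both lines were 5 members at 50 nM, or 6.58%, where 11.4% of all active genes were, and 13 members at 200 nM, or 17.1%, where the share was 20.4%.

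On the deposited scale, nearly all members had the lower change in SKNMC at the high dose. At 200 nM the change was higher in A673 than in SKNMC for 67 of 76 members, 88.2%, where 61.9% of all active genes were. At 50 nM this held for 52 members, 68.4%, where the share was 53.4%. Both counts depend on the scale, and they were not taken on other scales. At 200 nM the 75th percentile scale raised the median of all active genes by 0.30 in A673 and by 0.45 in SKNMC. By the mean of both doses, MRPL49 and MRPL22 differed most in this direction. MRPL49 was at 43.7, 25.6 and 36.4 FPKM in A673 and 46.4, 18.4 and 15.7 FPKM in SKNMC, so that at 200 nM its log2 change was -0.26 in one line and -1.51 in the other. MRPL22 was at 28.1, 29.9 and 25.02 FPKM in A673 and 56.6, 37.2 and 27.2 FPKM in SKNMC. Its levels in the lines differed with DMSO and lay near each other at 200 nM.

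In the other direction MRPL30 differed most, with a mean change of 0.09 in A673 and 0.63 in SKNMC, and MRPL34 and MRPL16 most among members above 10 FPKM with DMSO. MRPL34 was at 49.7, 38.9 and 30.04 FPKM in A673 and 39.8, 38.6 and 34.6 FPKM in SKNMC. From 50 to 200 nM, 36 of 76 members were lower in A673, where 51.7% of all active genes were, and 61 of 76 in SKNMC, where the share was 62.0%. Below DMSO at 50 nM and higher again at 200 nM were 31 members in A673, 40.8%, where 33.7% of all active genes were, and 13 in SKNMC, 17.1%, where the share was 30.3%. Between the libraries of one line, all of these values share the same DMSO library, and those of 200 against 50 nM share both THZ1 libraries.

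The subunits did not stand far apart. Medians over 49 large subunit genes were -0.28 and -0.32 in A673 and -0.45 and -0.82 in SKNMC, at 50 and 200 nM, and over 26 small subunit genes they were -0.37, -0.25, -0.48 and -0.77. In the same order, 6, 9, 8 and 21 large subunit genes were at least 2-fold lower, or 12.2%, 18.4%, 16.3% and 42.9%. Of the small subunit genes 2, 4, 1 and 9 were, or 7.69%, 15.4%, 3.85% and 34.6%, where the shares of all active genes were 15.9%, 25.3%, 15.8% and 27.3%. For the 46 conserved members the medians were -0.33, -0.25, -0.50 and -0.77, and for the 29 found only in mitochondria they were -0.32, -0.48, -0.37 and -0.82. The lowest and highest changes of the family both lay in the large subunit, with MRPL36 and MRPL30.

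The 3 proteins of the MRPS18 family occupy different sites, MRPS18A in the large subunit and MRPS18B and MRPS18C in the small subunit, and their genes changed by different amounts. MRPS18A was at 32.9, 16.9 and 17.6 FPKM in A673 and 31.6, 10.96 and 9.43 FPKM in SKNMC. MRPS18B was at 37.0, 22.3 and 20.6 FPKM in A673 and 40.8, 20.4 and 12.6 FPKM in SKNMC. MRPS18C was at 23.3, 22.5 and 19.9 FPKM in A673 and 47.9, 34.0 and 31.5 FPKM in SKNMC. MRPS18C had the smallest change of the 3 in all 4 comparisons.

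Of the genes that act with the mitochondrial ribosome, those for its assembly had the lowest median in 3 of the 4 comparisons, and those for transcription of mitochondrial DNA in SKNMC at 200 nM. The assembly set held 16 genes for assembly factors and rRNA modifying enzymes. At 50 and 200 nM, 7 and 12 of them were at least 2-fold lower in A673 and 9 and 12 in SKNMC. The shares of all active genes were 15.9% and 25.3% in A673 and 15.8% and 27.3% in SKNMC. In the same order, the medians of the 16 genes were -0.98, -1.25, -1.21 and -1.39. FTSJ2, an rRNA methyltransferase, was at 27.3, 6.61 and 5.11 FPKM in A673 and 24.7, 6.74 and 3.75 FPKM in SKNMC. It was lower than every one of the 76 members in mean log2 change, at -2.07 against -1.99 for MRPL36.

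The 5 genes for transcription of mitochondrial DNA had medians of -0.70, -1.22, -0.49 and -1.94. MTERF, a termination factor, was at 12.8, 2.40 and 0.899 FPKM in A673 and 15.7, 3.61 and 2.30 FPKM in SKNMC. TFAM, which packages mitochondrial DNA and starts its transcription, was at 47.5, 54.7 and 37.6 FPKM in A673 and 25.3, 41.2 and 22.4 FPKM in SKNMC, above DMSO at 50 nM and below it at 200 nM in both lines. The other 3, POLRMT, TEFM and TFB2M, were at least 2-fold lower in both lines at 200 nM, where 20.4% of all active genes were.

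Translation factors were mixed, with medians over 14 genes of -0.40, -0.41, -0.46 and -0.39. C12orf65, a release factor homolog, was at 12.9, 2.10 and 1.76 FPKM in A673 and 13.5, 2.02 and 2.497 FPKM in SKNMC. TACO1, an activator of COX1 translation, was at 18.0, 4.98 and 4.62 FPKM in A673 and 12.2, 2.58 and 1.48 FPKM in SKNMC. TUFM, the elongation factor that brings aminoacyl-tRNA, was instead at 127, 143 and 163 FPKM in A673 and 112, 121 and 133 FPKM in SKNMC. SLIRP, an RNA-binding protein that stabilizes mitochondrial mRNA, was at 230, 274 and 284 FPKM in A673 and 157, 174 and 165 FPKM in SKNMC.

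The 6 mitochondrial ribosomal proteins with other symbols had medians of -0.26, -0.25, -0.27 and -0.56. GADD45GIP1 was near its DMSO level throughout, at 129, 131 and 143 FPKM in A673 and 78.8, 77.2 and 86.4 FPKM in SKNMC. At 200 nM, 2 of the 6 were at least 2-fold lower in both lines, where 20.4% of all active genes were. These were ICT1, with log2 changes of -1.01 in A673 and -2.03 in SKNMC, and PTCD3, with -1.08 and -1.26.

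On the deposited scale, the protein genes of the cytosolic ribosome and of the respiratory chain stood above the DMSO level by median, where the mitochondrial ribosomal genes stood below it. Over 85 cytosolic ribosomal protein genes the medians were 0.20, 0.37, 0.37 and 0.59, and at most 1 was 2-fold lower in any comparison. The respiratory chain set here holds nuclear genes for its subunits and also those of ATP synthase. Over this set the medians were 0.20, 0.37, 0.18 and 0.17, with at most 2 of the 78 or 79 active genes 2-fold lower. The shares of all active genes 2-fold lower were 15.9%, 25.3%, 15.8% and 27.3%. Divided by the cytosolic ribosomal genes, the members' medians were -0.54, -0.60, -0.77 and -1.33. That scale sets the cytosolic ribosomal genes to about no change by construction, and the respiratory chain medians on it are not given.

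**Figure D4:**
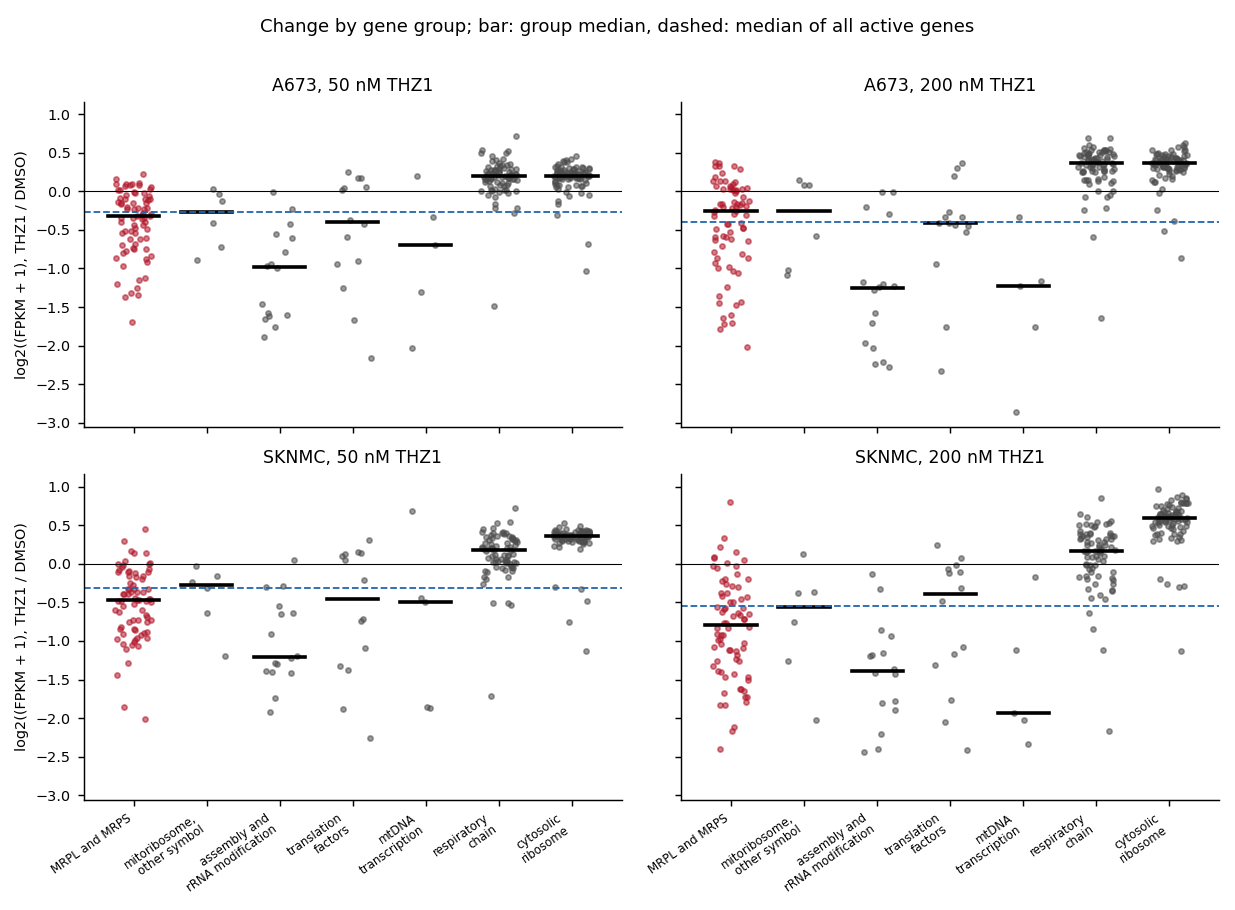
Changes against DMSO, log2((FPKM + 1), THZ1 / DMSO), of single genes active in both lines (points), by gene group, in the 4 comparisons. Thick bars are group medians and the dashed line is the median of all active genes of the line. The mitochondrial ribosomal genes (red) spread widely, mostly below 0. The assembly group lies below them by median, at -0.98 to -1.39, and most of the cytosolic ribosomal genes lie above 0.

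Members were often found back to back with another gene. Pairs were sought in which the starts of the canonical transcripts (GENCODE release 44 on GRCh37) point away from each other and lie at most 1000 bp apart. Of 74 members with such a transcript, 25 had a neighbour of this kind, or 33.8%, where 15.0% of 10257 active coding genes had one. After leaving out the neighbour of MRPL10, which is not active, and a second entry of PSMA2, 23 pairs remained, of which MRPL46 and MRPS11 form one. The PSMA2 entry left out (ENSG00000256646) is active and starts 162 bp from MRPL32, the kept entry 202 bp. Their mean changes were -1.92 and 0.13, beside -0.49 for MRPL32, so the direction of this pair depends on the entry. Across the 23 pairs the mean changes of members and neighbours had a Spearman correlation of -0.01. The median distance within a pair was 0.87 on the log2 scale, and 8 pairs lay more than 1 apart.

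The DNA between the starts is shown for 6 pairs, chosen after their values were seen because the genes on either side moved alike or far apart, in GRCh37 coordinates, plus strand. Capitals mark CCGGAAG or its reverse complement, a core sequence bound by ETS factors, the family that includes FLI1. For MRPL46 and MRPS11 the stretch is the gap between the ends listed in the table, as the canonical starts lie 320 bp apart.
MRPL27 / EME1, chr17:48450546-48450589: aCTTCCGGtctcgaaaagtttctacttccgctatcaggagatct
MRPL43 / C10orf2, chr10:102747255-102747299: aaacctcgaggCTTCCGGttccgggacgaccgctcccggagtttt
MRPL47 / NDUFB5, chr3:179322427-179322581: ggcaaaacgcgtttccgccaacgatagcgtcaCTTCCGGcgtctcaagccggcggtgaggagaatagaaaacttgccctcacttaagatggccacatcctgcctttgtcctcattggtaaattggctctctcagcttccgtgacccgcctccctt
MRPL49 / FAU, chr11:64889607-64889792: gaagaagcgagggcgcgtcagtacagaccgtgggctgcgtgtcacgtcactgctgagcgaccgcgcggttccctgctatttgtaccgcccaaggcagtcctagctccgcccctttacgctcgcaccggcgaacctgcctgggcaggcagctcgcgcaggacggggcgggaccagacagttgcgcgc
MRPS12 / SARS2, chr19:39421404-39421583: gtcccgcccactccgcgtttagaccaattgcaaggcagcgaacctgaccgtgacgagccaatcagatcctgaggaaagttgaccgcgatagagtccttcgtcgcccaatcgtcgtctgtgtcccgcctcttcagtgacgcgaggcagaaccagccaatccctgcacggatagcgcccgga
MRPL46 / MRPS11, chr15:89010651-89010682: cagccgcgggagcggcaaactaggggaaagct

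Genes on either side of these short stretches could be at quite different levels with THZ1. MRPL49 and FAU, whose product carries the cytosolic ribosomal protein S30, start 187 bp apart. FAU was at 381, 449 and 509 FPKM in A673 and 440, 540 and 570 FPKM in SKNMC, above DMSO in all 4 comparisons, while MRPL49 was below it in all 4. MRPL47 and NDUFB5, a subunit of complex I, start 156 bp apart, with 56.8, 45.5 and 42.1 FPKM for MRPL47 and 76.8, 80.8 and 113 FPKM for NDUFB5 in A673.

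The reverse held for MRPL43 and C10orf2, the gene of the mitochondrial DNA helicase Twinkle, with starts 46 bp apart. C10orf2 was at 16.3, 4.94 and 2.54 FPKM in A673 and 10.7, 5.18 and 1.69 FPKM in SKNMC. MRPL43 was at 56.2, 43.5 and 50.9 FPKM in A673 and 30.5, 21.3 and 19.2 FPKM in SKNMC, so that the mean log2 changes of the pair were -0.41 and -1.72.

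MRPL27 and EME1, which encodes a subunit of a DNA endonuclease, start 45 bp apart and were both lower, with mean changes of -1.07 and -1.34. MRPS12 and SARS2, the mitochondrial seryl-tRNA synthetase, had mean changes of -0.97 and -0.68. In the pair of 2 members, MRPL46 had -1.44 and MRPS11 -0.44. MRPS11 was at 41.6, 30.5 and 34.4 FPKM in A673 and 28.0, 19.8 and 18.6 FPKM in SKNMC.

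**Figure D5:**
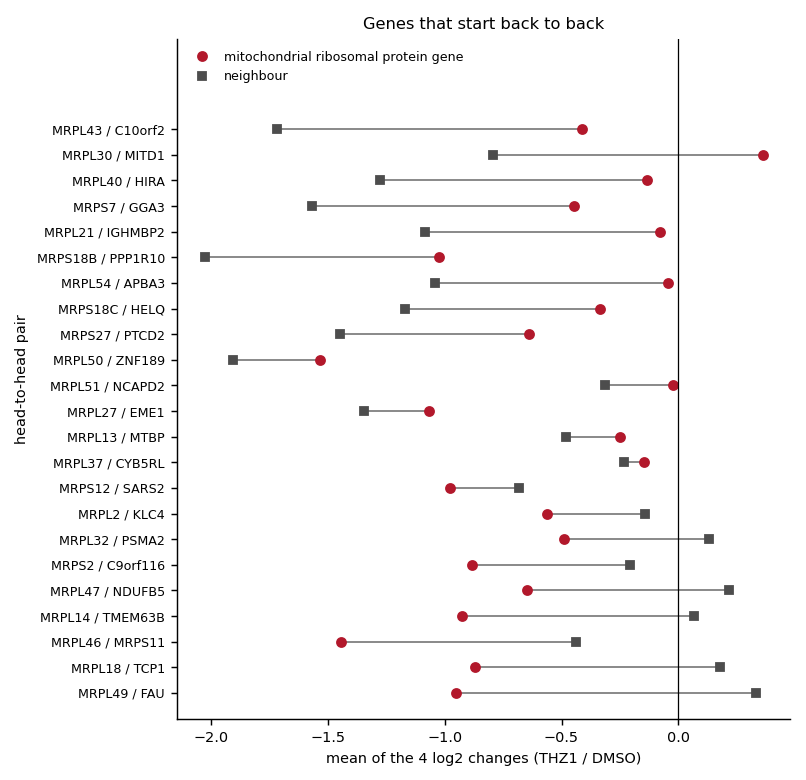
Mean of the 4 log2 changes against DMSO for both genes of the 23 head-to-head pairs, the mitochondrial ribosomal protein gene as a red circle and its neighbour as a grey square, joined by a line and ordered by their difference. For MRPL46 / MRPS11 the circle is MRPL46. Neighbours lie on the lower side in 14 pairs and on the higher side in 9.

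Short sequences were also counted in RefSeq promoters (GRCh38.p14, 250 bases before to 50 after the start), on both strands, for the 68 members with an entry. MRPL2, MRPL10, MRPL13, MRPL15, MRPL21, MRPL23, MRPL35 and MRPS28 had none. The ETS core CCGGAAG was in 28 of the 68 promoters, 41.2%, where 21.8% of 8597 active genes and 10.7% of all 27305 promoters held it. AAGATGGCG, the core bound by YY1, was in 13, or 19.1%, where the shares were 4.65% and 1.85%, and no member had the overlapping form of both. GCGCA followed by any base and GCGC, a motif bound by NRF1, a regulator of many nuclear genes for mitochondrial proteins, was in 7, or 10.3%, where the shares were 13.4% and 6.28%. The 7 were MRPL14, MRPL17, MRPL30, MRPL36, MRPL45, MRPS9 and MRPS33, with mean log2 changes from -1.99 for MRPL36 to 0.36 for MRPL30. GGGCGG was in 42, or 61.8%, where the shares were 72.2% and 44.6%, and CCAAT in 20, or 29.4%, where they were 37.5% and 35.7%.

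The median of the mean log2 changes was -0.39 for the 28 members with the ETS core and -0.48 for the 40 without it. It was -0.61 for the 13 with the YY1 core and -0.44 for the 55 without it, and -0.80 for the 7 with the NRF1 sequence and -0.45 for the 61 without it. With and without GGGCGG it was -0.48 and -0.43, and with and without CCAAT it was -0.64 and -0.44. These are descriptions of letters in a window, and binding was not measured.

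Overlap with other listed genes limits some of these values, as the strand setting of the counting is not given in the sources used here. Of the 78 entries, 26 overlap a listed gene on the other strand and 14 one on the same strand, and 41 overlap none. MRPL49 overlaps FAU and SYVN1, MRPL47 overlaps ACTL6A, MRPL43 overlaps C10orf2 and SEMA4G, and MRPL30 overlaps C2orf15 and its own second entry. MRPL33, which was above DMSO in all 4 comparisons, overlaps AC110084.1, BRE and RBKS, 1 of them on its own strand. MRPL23 and MRPL41 overlap no listed gene. Many members also have processed pseudogenes elsewhere in the genome, which were not analysed here.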

How the data were processed

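Each of 6 RNA samples (A673 and SKNMC, 6 h of DMSO, 50 nM or 200 nM THZ1) is 1 library, grouped by the sample labels. The authors used STAR to map paired reads of 100 bp to hg19 with Ensembl 75 and, per the paper's methods, estimated FPKM with StringTie, whereas the submitters' processing notes name Cufflinks. The deposited FPKM table lists 20311 protein-coding and 7109 lincRNA genes, and 0 columns of other samples. Its title speaks of average expression, but each column was taken as 1 library. Its 4 columns of fold changes, log2 ratios of THZ1 to DMSO, were not used. FPKM holds no counts, so no count test or counting interval was possible. How multi-mapping and antisense reads were treated is not given in the sources used here.

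Changes were log2((FPKM + 1) / (FPKM + 1)) with Python 3.11.15, numpy 2.4.6 and pandas 2.3.3, and the summaries were tested on simulated data. Alternatives were a pseudocount of 0.1, other expression filters, 3 other scalings and a 1.5-fold threshold. Genes were matched by symbol. Members and lists were chosen with earlier results of these data known. Named were the 5 highest and 5 lowest members by mean DMSO level, the 6 lowest and 6 highest by mean change above 10 FPKM, members 2-fold changed in any comparison, the 4 largest line ratios each way, the MRPS18 genes, the 4 lowest and 4 highest of the other mitochondrial genes, and, above 10 FPKM, the 4 with the largest line difference in change, 2 each way. Neighbours, motif examples and POLRMT, TEFM, TFB2M, ICT1 and PTCD3 were named after their values were seen. The sequence of 1 further pair is not reported here.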

Additional observations from a re-analysis of the deposited data

Results flagged for a closer look

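In 4 members both THZ1 libraries were above DMSO in A673 and below it in SKNMC, and this difference was not tested, as there is 1 library per condition. The A673 mean log2 change minus that of SKNMC was 0.70 for MRPL24, 0.41 for MRPL37, 0.33 for MRPL28 and 0.21 for MRPL48. MRPL24 was at 46.2, 47.0 and 58.3 FPKM in A673 and at 56.8, 33.4 and 45.95 FPKM in SKNMC, with DMSO, 50 nM and 200 nM. Of the 76 active members, 5.26% had this pattern, beside 4.39% of all genes active in both lines. With a common sum of listed FPKM 2 of the 4 kept the pattern (MRPL24 and MRPL37), and with the 75th percentile or the cytosolic ribosomal protein genes as the scale 0 did, although the difference stayed above 0 for each.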

How the results depend on the processing

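No paired analysis was possible because each condition has 1 library and the replicate number is shared by all of them. A pseudocount of 0.1, the expression filters and a common sum kept the direction of the 4 medians and left the counts within 1.5 times. A scale set by the 75th percentile of the active genes moved the medians at 50 and 200 nM to -0.079 and 0.076 in A673, a change of sign at 200 nM, and to -0.21 and -0.27 in SKNMC. The counts of members 2-fold lower became 5 in A673 at 50 nM and 4 and 13 in SKNMC. Dividing by the cytosolic ribosomal protein genes gave medians of -0.54, -0.60, -0.77 and -1.33, counts of 14, 21, 26 and 54, and a median log2 ratio of the lines with DMSO of 0.44. These shifts follow from the scale itself, since 1 factor per library moves every gene. A 1.5-fold threshold gave 23, 26, 31 and 48 members. Which scale is closest to RNA per cell was not tested, as no added standard was measured. Without replicates no value has an error, and the unknown depth leaves the precision of low genes such as MRPL30 and MRPL50 unknown.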

Other observations

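The members were compact genes. The canonical transcripts of 74 members had a median of 5 exons, 1242 spliced bases and 585 coding bases over a span of 8.14 kb, beside 9 exons, 3302 and 1382 bases and 27.9 kb for the genes active in both lines that had one. Within the family, neither structure nor level ordered the changes. The Spearman correlation with the mean log2 change, over 74 members, was 0.13 for exons, -0.15 for spliced length, -0.19 for coding length, -0.01 for span and 0.20 for the mean DMSO level, which shares its DMSO libraries with the change. The 78 entries lie on 21 chromosomes, with 9 on chromosome 2, both MRPL30 entries among them, 8 on chromosome 1 and 7 each on chromosomes 11 and 17.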
